A study of Mus musculus with 4 samples.

Results

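Potassium channel genes were followed in RNA recovered from mouse corticohippocampal lysate with an antibody against CPEB2, an RNA-binding protein of the CPEB family, or with control IgG. The members were all gene symbols that start with Kcn on the array, which are the official names of potassium channel subunits, without the non-coding antisense transcript Kcnq1ot1. This gave 94 of 24185 symbols, of which 85 had a probe well above background on at least 2 of the 4 arrays and were tested. The lysate came from male C57BL/6 mice aged 8 weeks and was split between CPEB2 IgG and control IgG, with 2 arrays for each antibody from 2 independent experiments. The labels name no allele, transgene or drug for either antibody, and the number of mice behind each lysate was not given in the sources used here. One descriptive label of these samples reads CPEB3 IgG, but the sample titles, the treatment protocol and the methods of the study all give CPEB2. The arrays shared 1 slide, with each antibody at its own positions, so that antibody and slide position cannot be told apart.

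Potassium channels let potassium leave or enter the cell and so set the resting potential, end the action potential and control how often a neuron fires. Voltage-gated (Kv) channels open on depolarization, calcium- or sodium-activated channels open when these ions rise inside the cell, inward rectifiers and two-pore channels act near rest, and auxiliary subunits change the gating and the transport of the pores. CPEB proteins bind the cytoplasmic polyadenylation element (CPE), a short U-rich motif in the 3′ untranslated region of mRNAs, and control translation there. In RNA immunoprecipitation, a gene whose mRNA is bound should give more signal with the specific antibody than with control IgG, and the comparison asked which potassium channel mRNAs did so.

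The CPE was searched in the array's own probes, which are 60 bases long, as TTTTAT or TTTTAAT on the probe strand only. The letters of both motifs start alike, but no site matches both at once. The probes run in the sense of the mRNA, since the polyadenylation signal AATAAA was present in 4451 and its reverse complement TTTATT in 1397 of 33256 probes. Of 121 detected Kcn probes, 5 held a CPE (4.13%), against 1400 of all 26710 detected gene probes (5.24%). The 5 windows are shown because they are the places where the motif CPEB2 is known for lies inside a measured Kcn probe. Each window is 30 bases, 5′ to 3′, with every CPE in capitals, and its probe's position is given on mm9.
Kcnk5, chr14:20959684-20959743: aatattTTTTAATgaactgttatTTTTATa
Kcnn3, chr3:89476303-89476362: tgcttgctattTTTTAATgataggagaaag
Kcnip3, chr2:127282242-127282301: agtcctatataTTTTAATaaaagaaacttg
Kcnh3, chr15:99073172-99073231: tgtcctcatgttTTTTATattaaaaaacat
Kcna6, chr6:126686922-126686981: aactcaaaggactgttaacatgtTTTTAAT
The Kcnk5 probe held 2 CPEs and the others 1 each. With CPEB2 IgG over control IgG, the Kcnk5 probe was at least 3.33-fold higher, since its control signals were not well above background. The log2 fold change was 0.70 for Kcnn3, 0.43 for Kcnip3, -0.03 for Kcnh3 and 0.50 for this probe of Kcna6. The brightest Kcna6 probe held no CPE and was at -0.61, with both CPEB2 IgG arrays below both controls. Only the Kcnk5 probe of these 5 passed in limma at an adjusted p under 0.05. The Kcn probes with a CPE had a median GC content of 35%, against 44.2% without. With arrays centred within bins of probe GC content, log2 fold changes were 1.53 for Kcnk5, -0.12 for Kcnn3 and 0.05 for Kcnip3. A probe covers only a small stretch of an mRNA, so a probe without these letters says nothing about the rest of the transcript.

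Among the 85 tested Kcn genes, 23 passed as higher with CPEB2 IgG in limma at an adjusted p under 0.05 (27.1%), against 21.2% of all 19698 tested genes. Another 7 passed as lower (8.24%), against 20.4% of all genes. Of these calls, Kcnk5 met the filter through its CPEB2 IgG arrays alone and Kcnh6 through its control IgG arrays alone. When each array was centred within bins of probe GC content, the shares higher were 17.6% and 17.3%, and the shares lower 5.88% and 22.8%. With 1 array left out, 16 of the 23 passed again without CPEB2 IgG replicate 1 or without replicate 2, 14 without control IgG replicate 1 and 12 without control IgG replicate 2, and Kcne2, Kcnj16 and Kcnh6 passed in none of these fits. The median log2 fold change over the tested Kcn genes was 0.15, with the middle of the distribution between -0.25 and 0.96, whereas over all genes it was -0.11, between -0.76 and 0.71. The medians in experiments 1 and 2 were 0.19 and 0.28. Signals of both CPEB2 IgG arrays lay above both control IgG arrays, after scaling, for 36 Kcn genes (42.4%, against 33.7% of all genes) and below them for 22 (25.9%, against 38.2%). Across the 85 genes, which are not independent replicates, experiments 1 and 2 correlated at Pearson r = 0.78 and Spearman rho = 0.81, and 15 genes had opposite signs. Lysate mixes many cell types, so that the cell type behind a signal cannot be told. Each lysate was split, so both antibodies of an experiment met the same mix of cells. Because each antibody had 2 arrays, the smallest p that exact permutation of a single gene allows is 0.333 when the pairing by experiment is ignored. Permutation within experiments allows only a larger one, and the calls rest on the spread that limma shares across genes.

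**Figure D1:**
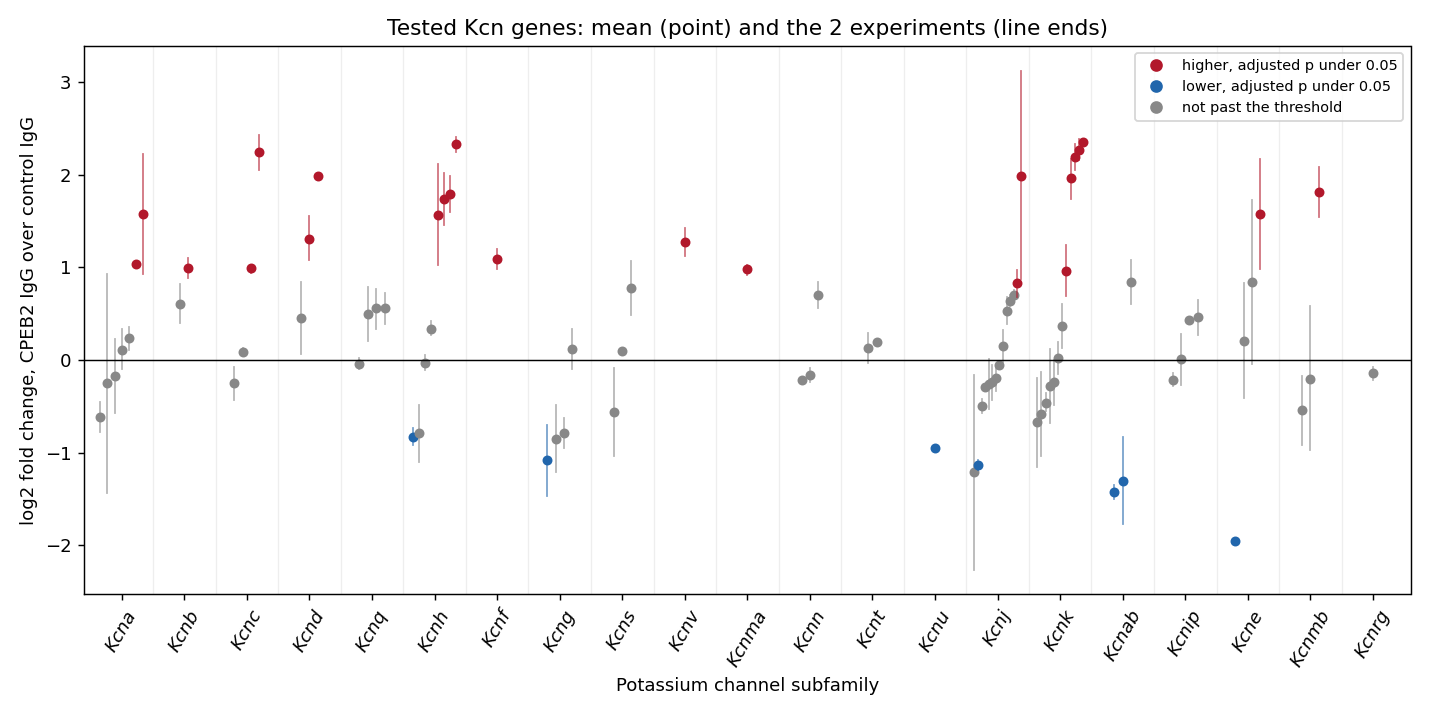
Log2 fold change of CPEB2 IgG over control IgG (vertical axis) for the 85 tested Kcn genes by subfamily (horizontal axis). Points are means of 2 experiments, line ends are the single experiments, and the 23 red points are higher and the 7 blue points lower at an adjusted p under 0.05. The Kcnd, Kcnh and Kcnk subfamilies hold several of the high points, and the low points lie in Kcnab, Kcne, Kcng, Kcnh, Kcnj and Kcnu.

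The 28 tested Kv pore genes had 11 members higher (39.3%, against 21.2% of all tested genes) and 1 lower (3.57%, against 20.4%). These shares of all genes also stand beside the subfamily counts below. The median log2 fold change was 0.53, against -0.11 over all genes. After GC centring, Kcna1, Kcna5, Kcnb2, Kcnc2 and Kcnh8 of these no longer passed as higher, nor Kcnh6 as lower. Kcnc1, a Kv3 channel of fast-spiking neurons, gave raw signals of 2962 and 4101 in experiments 1 and 2 with CPEB2 IgG, against 756 and 775 in the control IgG arrays. Both CPEB2 IgG arrays lay far above both controls, with a log2 fold change of 2.24 (SE 0.24, adjusted p = 0.00574). Kcnc2, its Kv3 relative, had signals of 1001 and 1101 against 553 and 547 (log2 fold change 0.99, adjusted p = 0.0277). Kcnc4, also a Kv3 gene, did not pass the test, with a log2 fold change of 0.09.

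The Kcnd genes encode the Kv4 pores of the A-type current that opens below the firing threshold, and 2 of 3 were higher. Kcnd3 (Kv4.3) gave signals of 10905 and 8517 with CPEB2 IgG against 2946 and 2158 in the controls, without overlap. Its log2 fold change of 1.99 was nearly equal in the experiments, at 1.97 and 2.00 (SE 0.23, adjusted p = 0.00611). Kcnd2 (Kv4.2), the main dendritic A-type pore of hippocampal pyramidal cells, gave 4548 and 5451 against 2284 and 1898. Its log2 fold change was 1.31 (SE 0.25, adjusted p = 0.0171), and the groups did not overlap. Kcnd1 had a log2 fold change of 0.45 that did not pass (adjusted p = 0.271), with 0.84 and 0.07 in the experiments.

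Of the Kv1 genes, 2 of 7 tested were higher. Kcna1 (Kv1.1), an axonal channel that limits repetitive firing, had signals of 6190 and 6894 with CPEB2 IgG against 3178 and 3432 in the controls. The experiments gave log2 fold changes of 1.05 and 1.03 (mean 1.04, SE 0.23, adjusted p = 0.024), but it was at 0.22 after GC centring (adjusted p = 0.493) and passed again only without CPEB2 IgG replicate 1. Kcna5 (Kv1.5) was higher by 1.58 (adjusted p = 0.0296), but by 0.93 in experiment 1 and 2.22 in experiment 2. Kcna2 (Kv1.2), which joins Kcna1 in axonal channels, gave 545 and 628 against 535 and 496 and did not pass, at 0.24 (adjusted p = 0.468). Kcna4, the Kv1 pore that inactivates fast, went opposite ways, at -1.43 in experiment 1 and 0.93 in experiment 2, and its control IgG signal was 11481 in experiment 1 and 3057 in experiment 2.

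The Kcnb genes encode the Kv2 delayed rectifiers of the cell body. Kcnb2 gave 1737 and 1390 with CPEB2 IgG against 998 and 658 in the controls, a log2 fold change of 0.99 (SE 0.23, adjusted p = 0.0288). After GC centring it was at 0.17 (adjusted p = 0.52), and with 1 array left out it passed again only without control IgG replicate 1. The Kcnq genes encode the M-current pores that slow firing, and none of the 4 tested passed. Kcnq5 was at 0.56 (adjusted p = 0.13) and Kcnq3 at -0.04, with signals of 108 and 102 against 113 and 112.

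The Kcnh subfamily, the ether-à-go-go related channels, had 4 of 8 members higher and 1 lower. Kcnh5 gave 1426 and 1967 with CPEB2 IgG against 549 and 493 in the controls (log2 fold change 1.74, SE 0.26, adjusted p = 0.00934). Kcnh1 was higher by 1.79 (adjusted p = 0.00767), and Kcnh4 by 1.57 (adjusted p = 0.0229), with 2.12 and 1.03 in the experiments. For all 3 genes the arrays of the antibodies did not overlap. Kcnh8 had a log2 fold change of 2.33 on a dim probe, with signals of 142 and 85.2 against 31.6 and 16.3 (adjusted p = 0.00543), and only 1 of its control arrays was well above background. Both Kcnh8 probes are listed on the strand opposite to the gene in RefSeq (GRCm38.p6), whereas the other 99 of 101 Kcn probes with a listed position and a known gene strand lie on the gene's own strand. Whether these probes measure Kcnh8 mRNA was not settled, and without this gene 3 Kcnh, 10 Kv and 22 Kcn genes in all were higher. Kcnh2, the ERG channel, was at -0.79 and did not pass (adjusted p = 0.0746). For Kcnh6, another ERG gene, the brightest probe was not well above background on either CPEB2 IgG array. Signals were 13.2 and 14.0 against 23.3 and 26.8, at least about 1.67-fold lower (adjusted p = 0.0462). Kcnh6 met the filter only through its control IgG arrays, so this p-value is no independent support. Its other probe was above background on 1 array of each antibody and was at 0.53.

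The silent Kv genes encode subunits that form no channel alone and modify Kv2 pores. Of 9 tested, 2 were higher (22.2%, against 21.2% of all genes) and 1 lower (11.1%, against 20.4%). Kcnv1 (Kv8.1) gave 2028 and 3115 with CPEB2 IgG against 988 and 1184 in the controls. Its log2 fold change was 1.27 (SE 0.24, adjusted p = 0.016), and 0.45 after GC centring (adjusted p = 0.142). It did not pass without CPEB2 IgG replicate 2 or without control IgG replicate 1. Kcnf1 (Kv5.1) gave 876 and 959 against 470 and 425, at 1.09 (adjusted p = 0.0225). Neither gene's groups overlapped. Kcng2 (Kv6.2) was lower, with 5532 and 3352 against 9517 and 9412, at -1.08 (SE 0.29, adjusted p = 0.04). Kcns2 (Kv9.2), at 0.78, did not pass (adjusted p = 0.0734).

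Of the 12 tested two-pore genes, which carry leak currents, 5 were higher (41.7%, against 21.2% of all genes) and none passed as lower (against 20.4%). Their median log2 fold change was 0.20. The higher genes included members of the mechano-gated TREK group. Kcnk10 (TREK-2) gave 3029 and 3460 with CPEB2 IgG against 717 and 673 in the controls, a log2 fold change of 2.27 (SE 0.24, adjusted p = 0.00554). Kcnk2 (TREK-1) gave 463 and 665 against 119 and 134, at 2.19 (SE 0.24, adjusted p = 0.00571). Both genes had similar fold changes in each experiment and no overlap between antibodies. The third member of that group, Kcnk4 (TRAAK), was at -0.28 and did not pass (adjusted p = 0.487). Its other detected probe was at 0.72, with 161 and 174 against 92.6 and 119 (limma adjusted p of the difference 0.0733). Kcnk1 (TWIK-1) gave 5025 and 7138 against 1588 and 1612, at 1.96 (SE 0.25, adjusted p = 0.00689). Kcnk5, the acid-sensitive TASK-2 channel whose probe held 2 CPEs, gave 33.5 and 50.8 against 6.89 and 10.3. The fit gave an adjusted p of 0.00543, and the fold change has only the approximate lower bound given with its sequence. Kcnk5 met the filter only through its CPEB2 IgG arrays, the side where it was higher, so this p-value is no independent support. With another background correction (normexp) its log2 fold change was 0.63 (adjusted p = 0.0167). Kcnk13 (THIK-1), a leak channel of microglia, was higher by 0.96 (adjusted p = 0.0415). The acid-sensitive TASK genes Kcnk3 and Kcnk9 were at -0.24 and -0.58 and did not pass.

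**Figure D2:**
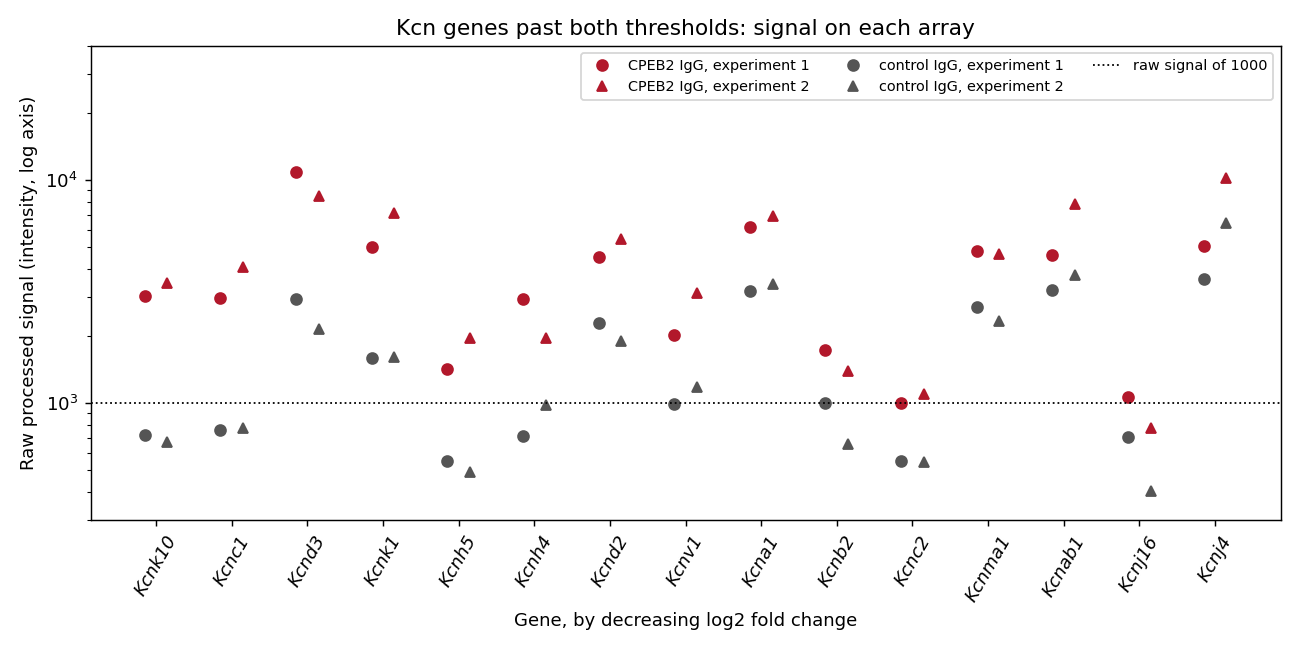
Raw processed signal on a log axis (vertical) of each array for 15 of the 16 Kcn genes past both a mean fold change of 1.5 and a raw signal of 1000 with CPEB2 IgG (horizontal axis, ordered by log2 fold change). Circles are experiment 1 and triangles experiment 2, red CPEB2 IgG and grey control IgG, and within each experiment the red symbol lies above the grey one for every gene shown.

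Of 14 tested inward rectifier genes, 2 were higher (14.3%, against 21.2% of all genes) and 1 lower (7.14%, against 20.4%), with a median of -0.12. Kcnj2 (Kir2.1) gave 255 and 399 with CPEB2 IgG against 148 and 46.7 in the controls. The mean log2 fold change of 1.99 (SE 0.57, adjusted p = 0.0474) held 0.87 and 3.12 in the experiments. Kcnj16 (Kir5.1), which pairs with Kcnj10 in astrocytes, was higher by 0.83 (adjusted p = 0.0491, and 0.114 without the experiment as a block), with 1064 and 777 against 703 and 403. Kcnj10 (Kir4.1), the main astrocyte pore, was at 0.53 and did not pass (adjusted p = 0.138). Among the G protein-gated GIRK genes, Kcnj9 was lower, with 448 and 492 against 1001 and 1139 (log2 fold change -1.13, SE 0.23, adjusted p = 0.0195). The other GIRK genes did not pass, with Kcnj3 at 0.70 (adjusted p = 0.0676), Kcnj6 at 0.15 and Kcnj5 at -0.26. Kcnj6 was measured by a probe with 10 spots per array, whose signals had coefficients of variation of 3.61% to 11%. The pore of the ATP-sensitive channel, Kcnj11, was at -0.29 (adjusted p = 0.361). Kcnj15 was at -1.21 with a large spread, -2.26 in experiment 1 and -0.16 in experiment 2, and did not pass.

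Of the 7 tested genes grouped by family with the calcium- or sodium-activated pores, 1 was higher (14.3%, against 21.2% of all genes) and 1 lower (14.3%, against 20.4%). Kcnma1, the large-conductance BK channel, gave 4824 and 4692 with CPEB2 IgG against 2702 and 2328 in the controls. Its log2 fold change was 0.98 (SE 0.23, adjusted p = 0.0287), without overlap. Kcnu1, the BK relative known from sperm, which is placed here by family and not by its gating, was lower. It gave 154 and 170 against 317 and 332 (log2 fold change -0.95, adjusted p = 0.0302). The small-conductance SK genes did not pass, with Kcnn2 at -0.16 and Kcnn3 at 0.70 (adjusted p = 0.0747), nor did the sodium-activated Kcnt1 and Kcnt2, at 0.20 and 0.13.

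The 15 tested auxiliary genes had 2 higher (13.3%, against 21.2% of all genes), 3 lower (20%, against 20.4%) and a median of 0.01. Kcnmb2, a BK beta subunit, gave 255 and 492 with CPEB2 IgG against 92.9 and 119 in the controls, at 1.81 (SE 0.26, adjusted p = 0.00848). Kcnmb4, the neuronal BK beta subunit, was at -0.54 and did not pass (adjusted p = 0.193). The Kcnab genes encode the cytoplasmic beta subunits of Kv1 channels and did not move together. Kcnab3 gave 534 and 614 against 1594 and 1589, at -1.42 (SE 0.23, adjusted p = 0.011), and Kcnab2 gave 99.2 and 44.6 against 187 and 155, at -1.30 (SE 0.32, adjusted p = 0.0305, and 0.0641 without the block). Both were lower on each CPEB2 IgG array than on either control. Kcnab1 was at 0.84 with adjusted p = 0.0553 and did not pass. The 4 Kcnip genes, calcium-binding partners of Kv4, did not pass and ranged from -0.21 (Kcnip2) to 0.46 (Kcnip1), with Kcnip3 at 0.43 on signals of 14626 and 14517 against 11388 and 11128. Kcne1l, a small membrane subunit of the KCNE family, gave 99.3 and 79.5 against 409 and 312, the lowest value among the tested Kcn genes at -1.95 (SE 0.23, adjusted p = 0.00615).

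Kcne2, a KCNE subunit known from the choroid plexus, was called higher by 1.58 (adjusted p = 0.0259), but it was well above background in experiment 1 alone, with 541 against 127, and on neither array of experiment 2. Its log2 fold changes were 2.17 and 0.98. Without the experiment as a block its adjusted p was 0.631. Kcnj13, another potassium channel of the choroid plexus, gave 153 and 77.5 against 169 and 81.0. Of 5 choroid plexus markers looked at after these values were seen, all 5 were brighter in experiment 1 than in experiment 2 with either antibody. Ttr, the transthyretin gene, gave 6966 and 291 with CPEB2 IgG against 11608 and 289 in the controls. The part of this tissue in the Kcne2 value was not tested.

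The study's thresholds of a 1.5-fold change and a raw signal of 1000 were read here as a mean over the experiments and as a signal on either CPEB2 IgG array, and its further demand for a CPE in the 3′ untranslated region was not applied. By this reading, 16 of 94 Kcn genes were kept (17.0%), against 13.9% of all symbols. They included Kcna1, Kcnab1, Kcnb2, Kcnc1, Kcnc2, Kcnd2, Kcnd3, Kcnh4, Kcnh5, Kcnj4, Kcnj16, Kcnk1, Kcnk10, Kcnma1 and Kcnv1. Of the role groups, the Kv pores gave 9 of 30 and the auxiliary subunits 1 of 17. Kcnab1 and Kcnj4 were in this set but did not pass the limma test. Kcnj4 (Kir2.3), a strong inward rectifier, overlapped between antibodies in raw signal, with 5090 and 10256 against 3602 and 6406 and log2 fold changes of 0.58 and 0.70 (adjusted p = 0.0846).

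For 31 Kcn genes more than 1 probe was detected, and in 16 of them the probes had log2 fold changes of both signs. The difference between the brightest probe and each other probe of the same gene was tested with limma over all 7012 such pairs on the array, of which 25.6% passed. Of the 36 Kcn pairs, 7 passed, from 6 genes. The median absolute difference was 0.67 over the Kcn pairs and 0.69 over all pairs. How many of all genes had probes of both signs was not counted. The Kcnc1 probe at 2.24, which lies at chr7:53693712-53693771 (mm9) and is annotated to NM_001112739, differed by 2.79 (SE 0.31, adjusted p = 0.0204) and by 1.90 (SE 0.25, adjusted p = 0.0224) from the probes annotated to NM_008421, which were at -0.55 and 0.34. Kcnd3 was at 1.99 on the probe annotated to NM_001039347 and at 0.18 on the one annotated to NM_019931 (adjusted p of the difference 0.0248). The same held for Kcnh8, at 2.33 and -0.03 (adjusted p = 0.0225), Kcnf1, at 1.09 and -0.78 (adjusted p = 0.0258), Kcne1l, at -1.95 and 0.27 (adjusted p = 0.0362), and Kcnn3, at 0.70 and -0.47 (adjusted p = 0.0441). In the 33 Kcn pairs that could be placed along the gene, the downstream probe was the higher one in 24 (72.7%), against 70.9% of 6826 such pairs over all genes. The downstream probe was also the brightest in 25 of the 33, so that position and the choice of the brightest probe cannot be told apart. With the mean of a gene's detected probes in place of the brightest, Kcna5, Kcnc1, Kcnf1, Kcne1l, Kcng2 and Kcnh6 no longer passed. The other 20 higher and 4 lower genes did. Among these, only Kcnd3, Kcnh8, Kcnma1 and Kcnmb2 had more than 1 detected probe. For the rest the mean was the brightest probe itself, so this alternative could not change their fold change. The Kcnma1 probes were at 0.98, 0.73 and 1.06. Of the Kcnmb2 probes, the brightest was at 1.81 and the other, whose control signals were not well above background, was at least about 4.04-fold higher. Whether a probe lies in coding or untranslated sequence was not determined, as no annotation of the files' build was used here.

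**Figure D3:**
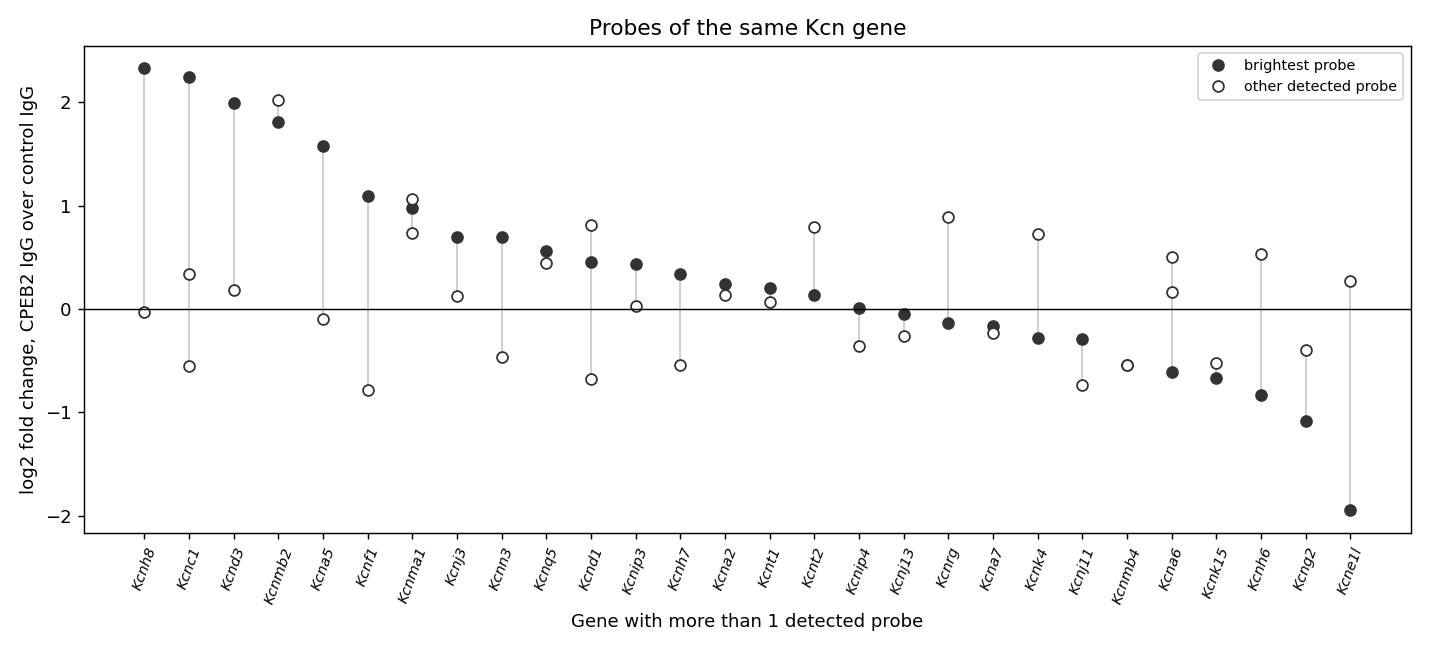
Log2 fold change of CPEB2 IgG over control IgG (vertical axis) for every detected probe of 28 of the 31 Kcn genes with more than 1 (horizontal axis). Filled circles are the brightest probe, which stood for the gene, open circles the others, and in 13 of the genes drawn the circles lie on both sides of 0.

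The fold change moved with the GC content of the probe. Over the 121 detected Kcn probes the Pearson r was -0.40 and the Spearman rho -0.46, and over all 26710 detected probes they were -0.36 and -0.37, as descriptions across probes of the same arrays. The 44 Kcn probes with a GC content from 35% to under 40% had a median log2 fold change of 0.76, against 0.32 for all probes in that range. The 28 Kcn probes at 50% GC or more had a median of -0.25, against -0.61 for all. With each array centred within bins of probe GC content, 13 of the 23 higher genes and 4 of the 7 lower genes kept their call, and 15 Kcn genes were higher in all. Kcna1, Kcna5, Kcnb2, Kcnc2, Kcne2, Kcnh8, Kcnj2, Kcnj16, Kcnma1 and Kcnv1 no longer passed as higher, nor Kcne1l, Kcng2 and Kcnh6 as lower. For Kcna5, Kcnh8 and Kcne1l another probe became the brightest, so that probe and centring changed together. Kcnc1, Kcnd2, Kcnd3, Kcnh1, Kcnh5, Kcnk1, Kcnk2, Kcnk5, Kcnk10 and Kcnmb2 were among the 13, and the log2 fold changes of Kcnc1, Kcnh5, Kcnk2 and Kcnmb2 fell to 1.42, 0.92, 1.37 and 0.99.

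**Figure D4:**
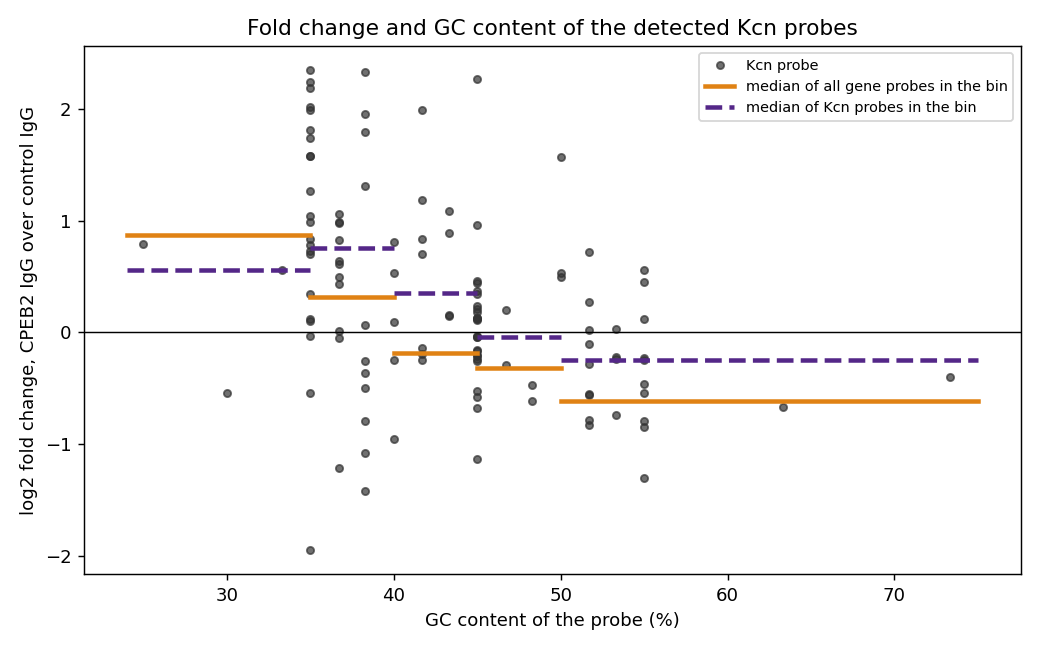
Log2 fold change of CPEB2 IgG over control IgG (vertical axis) against the GC content of the probe in percent (horizontal axis) for the 121 detected Kcn probes. Solid lines are the medians of all detected gene probes and dashed lines those of Kcn probes in 5 bins of GC content, and both fall from low to high GC content above 35%.

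Proteins that assemble with these channels were followed beside them, from a list of 21 partner genes and HCN channels of which 19 were tested. Of these, 7 were higher (36.8%, against 21.2% of all genes) and 1 was lower (5.26%, against 20.4%). Their median log2 fold change was 0.36, against -0.11 over all genes. Ank3, the ankyrin that anchors M-current channels at the axon initial segment, gave 4693 and 5485 with CPEB2 IgG against 1037 and 1000 in the controls, at 2.37 (SE 0.23, adjusted p = 0.00543). Partners of Kv1 channels included Adam22, at 2.27 (adjusted p = 0.00878), and Cntnap2, at 1.05 (adjusted p = 0.0235), which holds Kv1 channels beside the node of Ranvier. Dpp10, a Kv4 partner, was higher by 1.04 (adjusted p = 0.0266), and Dpp6, its relative, was at 0.64 and did not pass (adjusted p = 0.0851). Lrrc55, a BK gamma subunit, was at 2.21 (adjusted p = 0.00568), Abcc8, the sulfonylurea receptor that joins Kcnj11, at 1.16 (adjusted p = 0.0298), and Hcn3 at 1.87 (adjusted p = 0.0067). The lower gene was Vapb, an endoplasmic reticulum protein that binds Kv2, at -1.65 (adjusted p = 0.00911). The voltage-gated sodium and calcium channel genes, whose symbols start with Scn or Cacn, had 11 of 37 tested higher (29.7%) and 2 lower (5.41%), with a median of -0.04.

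The arrays had 68.4% to 74.1% of their spots well above background and none saturated, and 81.0% to 85.2% of Kcn probes were detected on each. The 9 Kcn genes not tested were Kcna10, Kcne1, Kcnj1, Kcnk7, Kcnk18, Kcnmb1, Kcnn1, Kcnq1 and Kcnv2, none of which was well above background on more than 1 array. Markers of neurons (7 of 7), astrocytes (5 of 5), oligodendrocytes (5 of 5), microglia (5 of 5) and endothelium (3 of 3) were all tested. Of these, 2 neuronal genes were higher and 1 lower, 2 astrocyte genes higher and 2 lower, 2 oligodendrocyte genes lower, and 1 microglial gene higher and 2 lower, and no endothelial gene passed. Of 5 genes of other tissues 3 were tested and none passed. The raw signals summed over a list ranged from 98301 to 103782 with CPEB2 IgG and 100780 to 106983 with control IgG for neurons, and from 29936 to 32178 and 14670 to 19262 for astrocytes. Slc1a3 made up most of the astrocyte sum with CPEB2 IgG, at 28729 and 26888 against 3302 and 2133, whereas Aldh1l1 was lower, at 1007 and 600 against 12652 and 9607. The microglial sums were 7579 and 6602 against 12340 and 10388. The part of astrocyte RNA in the values of Kcnj10 and Kcnj16 was not tested.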

How the data were processed

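RNA precipitated from corticohippocampal lysate was hybridised to 4 one-colour Agilent arrays, 2 per antibody. The spot intensities deposited by the authors came from Feature Extraction 10.5.1.1 after its own background correction, with no scaling between arrays, and gene symbols and mm9 positions are those of the array annotation. Such scaling of a precipitate assumes a like upper signal on all arrays, so fold changes are relative to the array.

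Control spots and marked spots were left out, repeated spots averaged, and log2 intensities centred on the 75th percentile per array, with 55615 probes kept. The brightest probe well above background on at least 2 arrays stood for a gene. Antibodies were compared with limma 3.58.1 in R 4.3.3, with the experiment number as a block, since the methods state that lysates were divided, and Benjamini-Hochberg adjustment over 19698 genes. The block left 1 residual degree of freedom per gene. Within experiments, deviations from the group mean correlated at 0.203 over all genes and at 0.581 over the tested Kcn genes. A signal not well above background on any array of a group gave a lower bound of the fold change. For it, such a signal was raised to the lowest signal called well above background on that array. Some signals above that level were also not called, so the bound is approximate and holds for this background correction only. SE is limma's standard error. The sources do not say how many animals a lysate held, so p-values measure the spread between these arrays.

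Named genes were the 8 highest and 8 lowest called, each subfamily's most extreme and a list of well-known members, and others were added with their value. The members and lists were chosen with earlier results of these data known, and the probe pair test and the choroid plexus markers after the values were seen. Alternatives covered scaling, background, filters, probe choice, the block and each array. Figures were drawn with matplotlib 3.10.9. Some members are not reported here by name.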

Additional observations from a re-analysis of the deposited data

How the results depend on the processing

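No Kcn gene called in either direction was called in the other under any alternative. Without the replicate block 24 Kcn genes were higher and 7 lower, with 21 and 6 shared; Kcne2, Kcnj16 and Kcnab2 no longer passed, and Kcng1, Kcnj3, Kcnn3 and Kcns2 did. Higher genes numbered 15 of 85 when probes were centred by GC content (17.6%, against 17.3% of all genes) and 10 of 94 with no filter on dim probes (10.6%, against 9.37%). Lower genes numbered 2 of 94 with no filter (2.13%, against 7.6%), 4 of 32 with raw signals above 1000 (12.5%, against 32.7%) and 4 of 85 with the mean of the probes (4.71%, against 20.4%). Leaving out 1 array, in fits without the block, gave 12 to 18 higher and 3 to 10 lower genes, the fewest higher without control IgG replicate 2 (14.1%, against 14.8% of all genes). The median log2 fold change was 0.30 after quantile normalization, 0.37 after median centring, 0.04 with the percentile over probes detected on all arrays, 0.58 with raw signals above 1000, and 0.19 to 0.28 without single arrays or experiments. Median centring moved the median of all genes from -0.11 to 0.11 and the share of higher among all calls from 50.9% to 61.2% (Kcn genes, from 76.7% to 85.3%). A mean fold change above 2 kept 9 genes past both thresholds. The direction of small differences reversed: Kcnq3 at 0.15 (quantile), 0.19 (median centring), 0.02 (normexp) and 0.12 (GC bins), Kcnrg at 0.07, 0.08 and 0.37 (quantile, median centring, mean of the probes), Kcnn2 at 0.06 (median centring), and Kcnn3 at -0.12 and Kcns2 at -0.04 (GC bins). Leaving out arrays gave Kcnj6 from -0.06 to 0.35 and Kcnq3 from -0.10 to 0.02. For Kcne1l at 0.64 (GC bins) and Kcnh8 at -0.03 (probes detected on all arrays) another probe stood for the gene. The cause of the other changes was not tested. Kcnk5, named next, met the filter through its CPEB2 IgG arrays alone. Of the 23 higher genes, 9 passed without any 1 array, namely Kcnc1, Kcnd3, Kcnh1, Kcnh5, Kcnk1, Kcnk2, Kcnk5, Kcnk10 and Kcnmb2, and of the 7 lower ones Kcnab3 and Kcne1l.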
